A study of Mus musculus with 14 samples.

Results

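The genes described here build the route by which a cell passes newly made proteins into the endoplasmic reticulum (ER) and on to the Golgi. They are 47 of the 24411 genes in the count files, chosen by name for what they do, by a rule that uses no measured value but was written with earlier results of these data known. Of these, 7 act in signal recognition, 10 in the translocon, 5 in the signal peptidase, 11 in the COPII coat, 8 as cargo receptors and 6 in the COPI coat. All 47 had a row in every library, and 46 passed the filter on low counts. The exception was Kdelr3, with 16 reads over 14 libraries.

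A ribosome that makes a secreted protein is stopped by the signal recognition particle and handed to its receptor on the ER. The chain then enters the Sec61 channel, and the signal peptidase cuts off its signal sequence. COPII vesicles carry folded cargo from the ER to the Golgi, and COPI vesicles bring ER residents back. Hepatocytes secrete most plasma proteins, so this route is heavily used in liver. Tunicamycin blocks N-linked glycosylation, so that glycoproteins misfold in the ER. The unfolded protein response, through the transcription factors XBP1 and ATF6, is known to raise many genes of this route in other settings.

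Livers came from male littermates of 5 to 7 months. All mice carried Rbbp5 (flox/flox), and Rbbp5 encodes a shared subunit of histone H3 lysine 4 methyltransferase complexes. WT mice were Alb-CRE (-/-). LKO mice were Alb-CRE (+/-), so that recombination is driven by the albumin promoter, which is active in hepatocytes. Whether other liver cells keep the gene was not measured. Each mouse got 1 intraperitoneal injection of 500 µl of 3% DMSO in PBS, alone as vehicle or with tunicamycin at 0.05 mg/kg, and the liver was dissected after 8 h. The groups held 3 libraries of WT vehicle, 3 of WT tunicamycin and 4 of each treatment in LKO. The labels give no animal behind a library, so p-values measure only the spread between these samples.

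Libraries held 6507018 to 13519421 reads on the strand of a gene, of which the ribosomal RNA gene Rn45s took 72.5 to 75.5%. Between 1704479 and 3551398 reads per library lay on other genes. Rn45s was kept in the counts and in the library sizes used for scaling. LKO vehicle libraries 3 and 4 were near duplicates, with a chi-square of 1.12 per degree of freedom against 3.38 to 25.9 in the other 17 pairs within groups. Their reads were added up as 1 sample, so 13 samples entered the fits. WT tunicamycin 3 stood apart from the other 2 libraries of its group, with 25.9 and 25.8 against 6.23 between those 2. The library labelled WT tunicamycin 2 had the collagens Col1a1 and Col3a1 within the range of LKO and Rbbp5 within that of WT. All 10 hepatocyte markers were measured, with a summed level of 22887 to 35816 CPM (counts of a gene per library size, scaled with TMM) per sample. Of 6 listed markers of plasma and B cells, 4 were counted, without Ighm and Igkc, and summed to at most 2.25 CPM. Those of T cells summed to at most 0.948. Rbbp5 had 4.07 to 6.41 CPM in the 6 WT samples and 1.90 to 4.15 in the 7 LKO samples. The highest of the LKO values was that of the library labelled LKO vehicle 1, which lay inside the range of WT vehicle.

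Known response elements were searched in the promoters, and the stretches that hold one are printed because the same letters recur in several members. RefSeq promoters (GRCm38.p6, mm10, 250 bases before to 50 after the start) were on hand for 36 of the 47 genes, as 38 promoters. Not searched, for lack of a promoter, were Sec61a1, Srp19, Srp68, Ssr2, Tram1, Spcs3, Sec11c, Lman1, Kdelr2, Tmed2 and Arcn1. The element bound by XBP1 and ATF6, UPRE (TGACGTGG on either strand), stood in 5 of the 38, or 13.2%, and in 0.676% of all 32851 promoters. Its members were Sec24d, Copb1, Copb2, Sec23a and Kdelr3. The shorter GACGTG, which every UPRE contains, stood in 14 of the 38 (36.8%) and in 6.38% of all. CCAAT stood in 31.6% against 37.4%. Neither of the longer response elements ERSE and ERSE-II was found in these windows of members, and they stood in 0.119% and 0.0365% of all promoters. The lines below run 5′ to 3′ along the strand of the gene, with the UPRE in capitals.
Sec24d: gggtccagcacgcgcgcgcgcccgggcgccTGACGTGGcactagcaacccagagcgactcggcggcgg
Copb1: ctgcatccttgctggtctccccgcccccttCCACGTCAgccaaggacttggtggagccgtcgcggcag
Copb2: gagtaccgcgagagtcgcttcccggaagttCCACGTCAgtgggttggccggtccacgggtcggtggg
Sec23a: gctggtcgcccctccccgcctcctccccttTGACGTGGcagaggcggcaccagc
Kdelr3: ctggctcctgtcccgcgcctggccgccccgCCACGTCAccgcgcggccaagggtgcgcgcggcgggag

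These stretches lie at chr3:123267440-123267507 (plus strand) for Sec24d, chr7:114254671-114254738 (minus) for Copb1 and chr9:98563694-98563760 (plus) for Copb2. Those of Sec23a and Kdelr3 lie at chr12:59011988-59012041 (minus) and chr15:79516348-79516415 (plus). The element begins 26 bases before the start of Sec24d, 28 before that of Copb1, 30 before that of Kdelr3 and 7 before that of Copb2, and 6 bases after the start of Sec23a. Copb1, Copb2 and Kdelr3 read CCACGTCA, the other strand of the same letters. These distances are from the RefSeq start. GENCODE begins Sec24d at 123267455, Copb1 at 114254711 and Copb2 at 98563721, further upstream, so that these elements, like that of Sec23a, lie inside the gene models, while that of Kdelr3 lies before its GENCODE start at 79516411. A match is a description of letters, and binding was not measured.

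Sec23b, the only member that edgeR called between genotypes after tunicamycin, has no UPRE in either of its 2 RefSeq promoters. Its outer start is shown here from 100 bases before to 30 bases from the start on (chr2:144556129-144556258, plus strand), with CCAAT on either strand in capitals.
Sec23b: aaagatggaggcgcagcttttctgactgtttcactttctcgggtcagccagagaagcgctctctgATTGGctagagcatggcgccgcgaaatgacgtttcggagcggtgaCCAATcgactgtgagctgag

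Per length, the members covered a wide range of levels. In WT vehicle the highest mean levels on the FPKM scale (fragments per gene length and library size) were those of Tmed2 at 18.5 ± 0.131 (SD, n = 3) and Sar1b at 16.8 ± 1.04, with Ssr3 at 14.1 ± 0.522. The samples of these 3 genes did not overlap in WT vehicle. Tmed2 is a p24 cargo receptor, Sar1b the GTPase that starts a COPII coat, and Ssr3 a subunit of the TRAP complex beside the translocon. At the low end stood Sec24b at 0.468 ± 0.115 and Srprb at 0.564 ± 0.172, which overlap. Kdelr3 had 0 to 5 reads per sample on its own strand. In WT vehicle it had 0 such reads in all 3 samples, while the FPKM table lists 0.0504, 0.105 and 0, so the measures differ and no level is given for it. Within groups the coefficient of variation of a member's CPM had a median of 7.19% in WT vehicle, 11.03% in WT tunicamycin, with 9.92% in vehicle-treated LKO and 9.37% after tunicamycin.

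In WT livers most members stood higher after tunicamycin, by small steps. Of the 46 tested, 40 were higher and 6 lower, and the median log2 difference was 0.26, against 0.01 over all 9644 genes. No member passed edgeR's quasi-likelihood test at a Benjamini-Hochberg adjusted p under 0.05, as 0.363% of all genes did (0.29% higher, 0.0726% lower). With an unadjusted p under 0.05, 17 stood higher and 0 lower, where all genes gave 7.93% and 6.85%. In 18 members every tunicamycin sample lay above every vehicle sample, which is 39.1%, against 8.63% of all genes, and in 0 the reverse, against 8.65%. DESeq2 called 2, Mcfd2 and Sec61a1, and 1.56% of all genes. Without WT tunicamycin 3, edgeR called 3 members (6.52%), Mcfd2, Srp19 and Sec61a1, and 6.19% of all genes, so the members' share was near that of all genes.

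One library and the scaling bear on this count. WT tunicamycin 1 was the highest of all 13 samples for 26 of the 46 members, and for 12.7% of all genes. Without it, 39 members were higher and 7 lower, with a median of 0.20. Total counts include Rn45s, which took 72.5 to 75.5% of the reads on genes, so scaling by them rests mostly on that gene. Scaling by total counts moved the median of all genes to -0.18 and that of the members to 0.07, with 29 higher and 17 lower. In the deposited FPKM, 35 were higher and 11 lower, with medians of 0.09 for members and -0.04 for all genes.

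**Figure D1:**
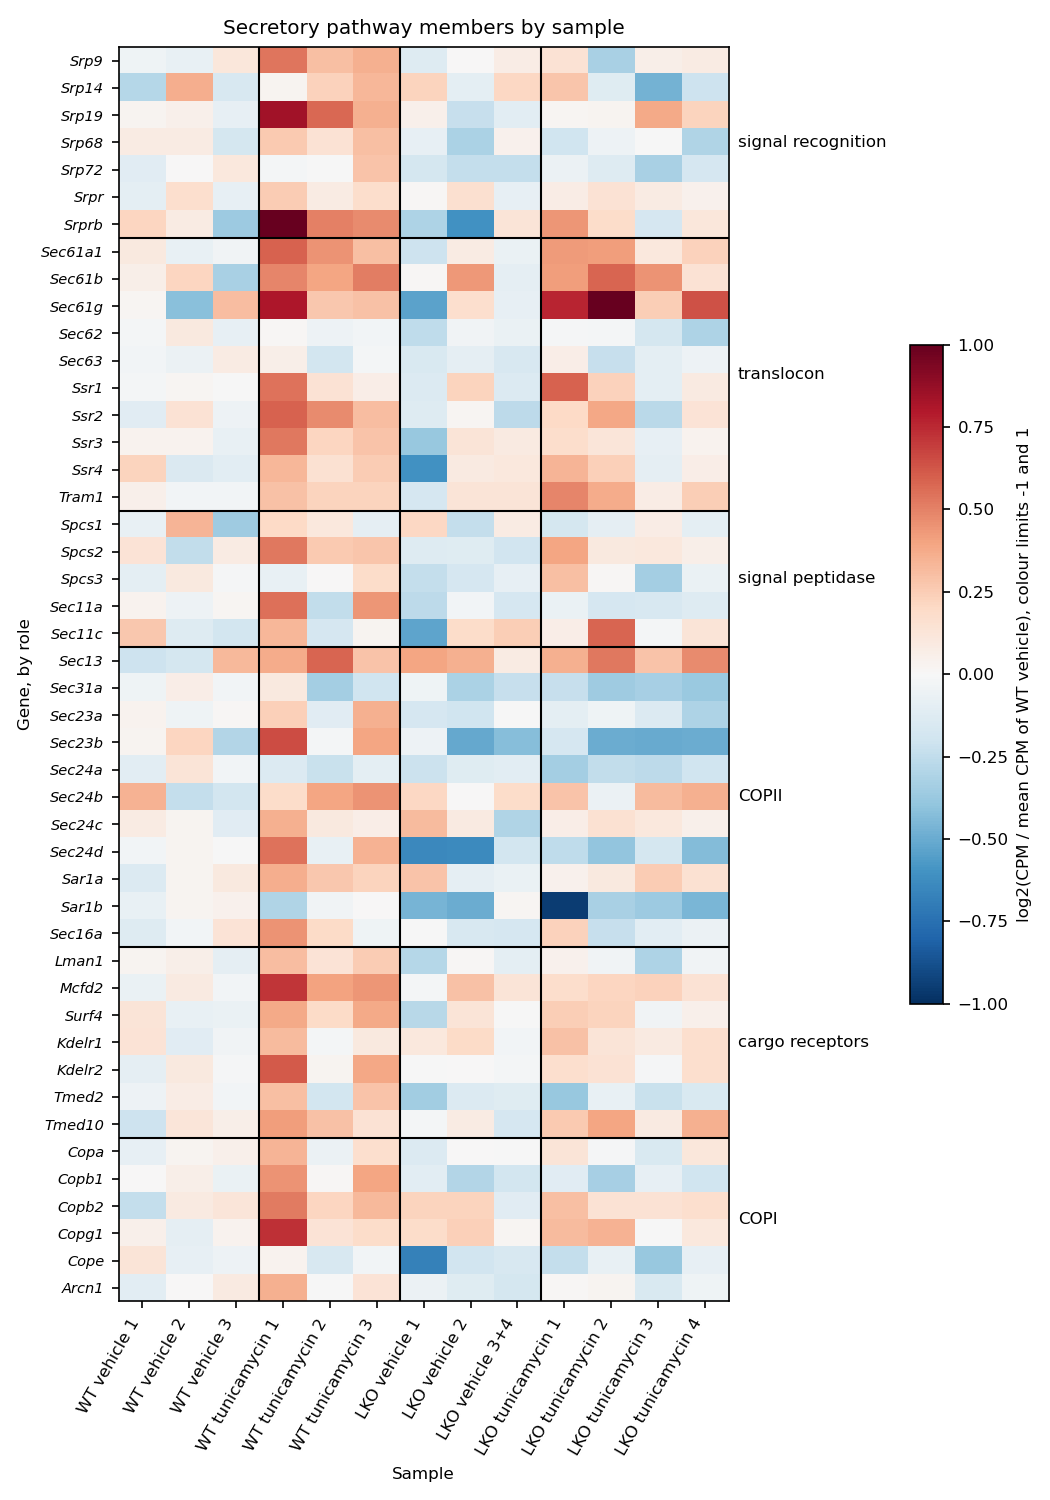
Heat map of the 46 tested members (rows, by role) in the 13 samples (columns, by group), where colour is the log2 ratio of a sample's CPM to the mean CPM of WT vehicle, with colour limits at -1 and 1. The WT tunicamycin columns are mostly red, with WT tunicamycin 1 the deepest, and Sec24d, Sec23b and Sar1b are blue across most LKO columns.

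Signal recognition came first on the route, and all 7 of its genes were higher after tunicamycin in WT, with a median of 0.24. Srprb encodes the membrane subunit that anchors the receptor of the particle. It had 4.79, 4.36 and 3.21 CPM in WT vehicle, 9.63, 5.84 and 5.71 in WT tunicamycin, and 3.32, 2.70 and 4.51 in LKO vehicle with 5.60, 4.68, 3.67 and 4.45 in LKO tunicamycin. The WT groups do not overlap, and WT tunicamycin 1 is the highest of all 13. The WT difference was 0.78 ± 0.26 (SE, log2) with an edgeR adjusted p of 0.163, and that in LKO 0.36 ± 0.23 with 0.591. Only 22 to 76 reads lay behind each value.

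Srp19 helps to assemble the particle on its RNA. Its levels were 4.55, 4.61 and 4.23 CPM in WT vehicle, 7.98, 6.65 and 5.71 in WT tunicamycin, and 4.62, 3.80 and 4.15 in LKO vehicle with 4.53, 4.55, 5.81 and 5.21 in LKO tunicamycin. All WT tunicamycin samples exceeded all WT vehicle samples, and the LKO groups overlapped. The log2 difference was 0.60 ± 0.18 in WT (adjusted p 0.128, edgeR) and 0.28 ± 0.16 in LKO (0.507). Srp9, which holds the part of the particle that pauses the ribosome, had 9.94, 9.74 and 11.1 CPM in WT vehicle, 14.9, 12.6 and 13.1 in WT tunicamycin, and 9.36, 10.3 and 10.8 in LKO vehicle with 11.3, 8.20, 10.7 and 10.9 in LKO tunicamycin. The WT tunicamycin samples were its 3 highest of all 13. Its difference was 0.41 ± 0.14 in WT and 0.01 ± 0.13 in LKO, with edgeR adjusted p of 0.189 and 0.987. The WT values of the other 4 genes, Srp14, Srp68, Srp72 and Srpr, ran from 0.10 to 0.24.

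Of the translocon genes, 8 of 10 were higher in WT and 9 of 10 in LKO, with medians of 0.31 and 0.24. Sec61a1 (chromosome 6, 88503579 to 88518905, mm10) encodes the pore of the channel itself. It measured 45.1, 40.1 and 41.3 CPM in WT vehicle, 63.6, 57.7 and 52.02 in WT tunicamycin, and 36.5, 44.5 and 40.2 in LKO vehicle with 56.8, 56.3, 45.4 and 49.4 in LKO tunicamycin. Vehicle and tunicamycin samples did not overlap in either genotype. The difference was 0.45 ± 0.13 in WT and 0.36 ± 0.12 in LKO, with edgeR adjusted p of 0.113 and 0.262.

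Sec61b and Sec61g encode the small subunits of the channel. Sec61b stood at 5.51, 6.15 and 4.23 CPM in WT vehicle, 7.43, 6.97 and 7.56 in WT tunicamycin, and 5.33, 7.15 and 4.98 in LKO vehicle with 7.06, 7.94, 7.23 and 5.86 in LKO tunicamycin, apart between treatments in WT and not in LKO. Its differences were 0.46 in WT and 0.26 in LKO. Sec61g, with 11 to 30 reads per sample, stood at 1.92, 1.41 and 2.33 CPM in WT vehicle, 3.30, 2.27 and 2.32 in WT tunicamycin, and 1.30, 2.12 and 1.78 in LKO vehicle with 3.20, 3.90, 2.24 and 2.93 in LKO tunicamycin. Here it was the LKO groups that did not overlap, and the difference was 0.77 ± 0.25 in LKO against 0.50 ± 0.30 in WT, with an edgeR adjusted p of 0.260 in LKO.

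The TRAP complex binds some chains as they enter the channel. Its subunit Ssr2 had 9.22, 11.02 and 9.62 CPM in WT vehicle, 14.999, 13.8 and 12.3 in WT tunicamycin, and 9.12, 10.1 and 8.31 in LKO vehicle with 11.5, 13.01, 8.25 and 10.97 in LKO tunicamycin, with the WT treatments apart and the LKO treatments overlapping. Ssr3 had 80.8, 80.9 and 74.6 CPM in WT vehicle, 113, 91.4 and 95.9 in WT tunicamycin, and 60.4, 86.1 and 83.8 in LKO vehicle with 88.9, 85.6, 74.3 and 80.8 in LKO tunicamycin, with the lowest value in the library labelled LKO vehicle 1. The WT differences of Ssr1, Ssr2, Ssr3 and Ssr4 were 0.27, 0.46, 0.35 and 0.25, and those in LKO 0.23, 0.25, 0.10 and 0.23. Tram1, another partner of the channel, differed by 0.25 and 0.27. Sec62 and Sec63, which serve the import of finished chains, stood at -0.02 and -0.04 in WT and -0.01 and 0.06 in LKO.

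The signal peptidase had the smallest median in WT, 0.08, with 5 of 5 genes higher. Spcs2 (chromosome 7, 99837569 to 99863462), a subunit next to the catalytic one, measured 17.4, 13.3 and 16.8 CPM in WT vehicle, 22.8, 18.97 and 19.1 in WT tunicamycin, and 14.5, 14.5 and 13.9 in LKO vehicle with 20.8, 16.9, 17.02 and 16.5 in LKO tunicamycin. Treatments did not overlap in either genotype, and the difference was 0.36 ± 0.14 in WT and 0.32 ± 0.12 in LKO (edgeR adjusted p 0.215 and 0.328). The catalytic subunits are Sec11a and Sec11c. Sec11a had 8.86, 8.33 and 8.75 CPM in WT vehicle, 12.7, 7.30 and 11.7 in WT tunicamycin, and 7.23, 8.47 and 7.71 in LKO vehicle with 8.26, 7.68, 7.74 and 7.93 in LKO tunicamycin, with WT tunicamycin 2 below every WT vehicle sample and the other 2 above. The WT differences of Spcs1, Spcs3, Sec11a and Sec11c were 0.07, 0.04, 0.30 and 0.08. That of Spcs1 became -0.11 with total count scaling, where all genes had a median of -0.18.

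COPII genes were less uniform, with 8 of 11 higher in WT and 6 of 11 in LKO. Sec13, an outer coat subunit, had 5.15, 5.25 and 7.43 CPM in WT vehicle, 7.71, 8.92 and 7.25 in WT tunicamycin, and 7.82, 7.59 and 6.29 in LKO vehicle with 7.59, 8.59, 7.23 and 8.25 in LKO tunicamycin, with WT groups that overlap. It had the largest WT difference of the coat, 0.43 ± 0.18 (edgeR adjusted p 0.258). Sec31a, its partner in the outer coat, had -0.13 in WT and -0.13 in LKO. Sec24a and Sar1b were also lower in both genotypes, at -0.15 and -0.11 in WT and -0.12 and -0.21 in LKO. These 2 genes start beside each other on opposite strands of chromosome 11, Sec24a ending at 51763634 and Sar1b beginning at 51763687. Sar1a, the other GTPase of the coat, had 0.29 in WT and 0.10 in LKO. None of these passed the test.

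Cargo receptors and the receptors that retrieve ER residents showed 7 of 7 tested genes higher in WT and 6 of 7 in LKO. Mcfd2 (chromosome 17, 87254443 to 87265935) and Lman1 form the receptor that carries coagulation factors V and VIII out of the ER. Mcfd2 measured 36.8, 41.1 and 37.9 CPM in WT vehicle, 63.3, 51.1 and 52.5 in WT tunicamycin, and 38.03, 47.2 and 42.2 in LKO vehicle with 43.7, 44.9, 45.3 and 42.8 in LKO tunicamycin. Each WT tunicamycin sample exceeded every sample of the other 3 groups, while the LKO groups overlapped. The difference was 0.53 ± 0.12 in WT, with an edgeR adjusted p of 0.0598, and 0.05 ± 0.11 in LKO, with 0.894. DESeq2 called it in WT, with an adjusted p of 0.0101, as did edgeR with all 14 libraries kept apart, at 0.0436. With 1 sample left out, edgeR called it without WT tunicamycin 3. Its largest edgeR adjusted p was 0.279, without WT tunicamycin 1, a fit in which 0% of all genes passed. It missed with total count scaling, at 0.153, with the block, at 0.0952, with no filter, at 0.0598, and with limma on FPKM, at 0.175.

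Lman1 had 103, 105 and 94.5 CPM in WT vehicle, 125, 110.2 and 119.8 in WT tunicamycin, and 82.6, 101 and 93.98 in LKO vehicle with 104, 97.99, 81.2 and 98.1 in LKO tunicamycin, and differed by 0.23 in WT and 0.04 in LKO. Its WT treatments did not overlap. Surf4, a receptor for soluble cargo, had 53.6, 46.6 and 46.9 CPM in WT vehicle, 63.8, 56.1 and 63.9 in WT tunicamycin, and 40.5, 53.8 and 49.01 in LKO vehicle with 58.4, 57.4, 47.9 and 50.7 in LKO tunicamycin, also apart in WT and overlapping in LKO. Its differences were 0.32 and 0.16. Kdelr2, which returns proteins ending in the KDEL signal, had 32.8, 37.4 and 34.7 CPM in WT vehicle, 53.4, 35.7 and 45.8 in WT tunicamycin, and 34.95, 35.04 and 34.4 in LKO vehicle with 39.3, 38.6, 34.6 and 39.3 in LKO tunicamycin. WT tunicamycin 2 lay inside the vehicle range, and the WT difference was 0.36 ± 0.13 (edgeR adjusted p 0.203). Tmed10, a p24 receptor, was the cargo receptor with the largest LKO difference, 0.31 ± 0.12 (0.316), beside 0.29 ± 0.13 in WT (0.307).

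In the COPI coat 5 of 6 genes were higher in WT and 6 of 6 in LKO, by medians of 0.24 and 0.07. Copg1, a subunit that binds cargo, had 16.05, 14.6 and 15.9 CPM in WT vehicle, 25.7, 17.02 and 17.6 in WT tunicamycin, and 17.7, 18.3 and 15.7 in LKO vehicle with 19.3, 19.8, 15.5 and 16.7 in LKO tunicamycin, with a WT difference of 0.38. Copb2, which reads retrieval signals, had 31.01, 38.8 and 39.8 CPM in WT vehicle, 52.3, 42.3 and 45.7 in WT tunicamycin, and 42.7, 42.6 and 33.8 in LKO vehicle with 45.03, 40.3, 40.5 and 41.1 in LKO tunicamycin, with 0.36 in WT and 0.07 in LKO. The WT treatments did not overlap for either gene, and the margin was narrow for Copg1. Of the 4 tested members with a UPRE, the WT differences were 0.30 for Sec24d, 0.30 for Copb1, 0.36 for Copb2 and 0.18 for Sec23a, next to the median of 0.26 over all members. In LKO they were 0.16, 0.01, 0.07 and -0.02. That of Copb1 in LKO turned to -0.03 with total count scaling and to -0.02 in the FPKM.

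In LKO as a whole, 36 of 46 members were higher after tunicamycin and 10 lower, with a median of 0.08 against 0.00 over all genes. No member passed edgeR's test (0.0311% of all genes did, 0.0207% higher and 0.0104% lower) or DESeq2's. With an unadjusted p under 0.05, 5 stood higher and 0 lower, which is 10.9% and 0%, against 5.83% and 6.33% of all genes. In 4 members the LKO treatments did not overlap, all higher after tunicamycin, at 8.7% against 5.03% of all genes, and 6.55% of all genes were apart on the lower side. The members were Sec61a1, Sec61g, Spcs2 and Tmed10.

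**Figure D2:**
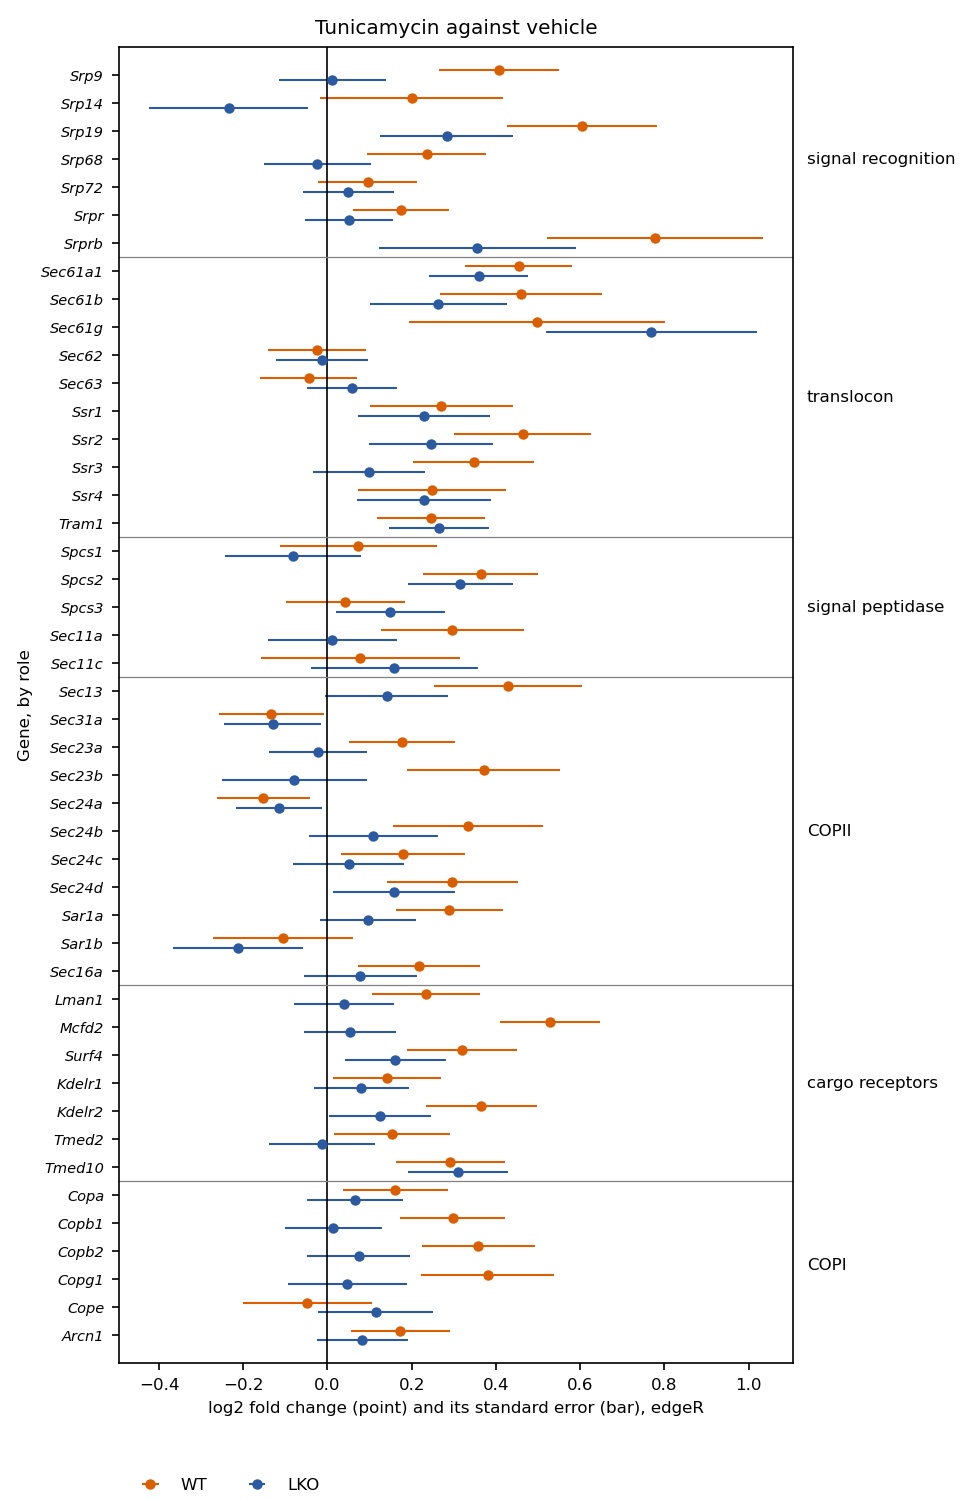
Log2 difference of tunicamycin against vehicle (x axis, point, with the standard error as a bar) for each of the 46 tested members (y axis, by role), in WT and in LKO. WT points lie right of 0 for 40 members and LKO points for 36, and the WT point is the farther right for most of the signal recognition, cargo receptor and COPI genes.

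Whether the effect of tunicamycin differed between genotypes was tested as an interaction (the LKO effect minus the WT effect). It was below 0 for 36 of 46 members and above for 10, with a median of -0.15 against -0.02 over all genes. No member passed, and neither did any other gene (0% of all genes) in edgeR. At an unadjusted p under 0.05 there was 1 member, and it was lower, where 2.79% of all genes were lower and 2.13% higher. It was Mcfd2, at -0.47 ± 0.16 (edgeR adjusted p 0.935). DESeq2 called 0. All 7 signal recognition genes were below 0, with a median of -0.32, and 4 of the 10 translocon genes were above it. With total count scaling the members split 23 and 23, while the median of all genes moved to 0.13 and that of the members to -0.01. Without WT tunicamycin 1, 17 were above and 29 below.

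With vehicle, 14 members were higher and 32 lower in LKO, with a median of -0.08 against 0.00 over all genes. No member passed edgeR's or DESeq2's test (0.0415% of all genes passed edgeR's, 0.0311% higher and 0.0104% lower). With an unadjusted p below 0.05, 0 members were higher and 1 was lower, where all genes gave 4.71% and 3.44%. It was Sec24d, at -0.47 ± 0.16 (edgeR adjusted p 0.432). The genotypes did not overlap in 6 members, all lower in LKO, which is 13% against 7.58% of all genes, and 7.52% of all genes were apart on the higher side. They were Srp72, Sec63, Sec24d, Tmed2, Copb1 and Cope. In the FPKM, where the total of LKO vehicle 2 (99386) stands apart from the 156509 to 169701 of the other samples, 25 were higher and 21 lower.

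After tunicamycin, 42 of 46 members were lower in LKO than in WT and 4 higher, with a median of -0.19 against -0.01 over all genes. Sec23b was lower and passed edgeR's test, as the only 1 of the 46, where 0.861% of all genes passed and 0.55% were lower. With an unadjusted p under 0.05, 16 members stood lower and 0 higher, or 34.8% against 8.24% of all genes on the lower side and 7.55% on the higher. In 11 members every LKO sample lay below every WT sample, which is 23.9% against 6.58% of all genes, and in 0 the reverse, against 6.34%. This comparison shares the WT tunicamycin samples with the one of tunicamycin in WT, so the counts are not independent of each other. Without WT tunicamycin 1, 37 were lower and 9 higher. No member passed in that fit, and neither did any other gene (0% of all genes). With total count scaling, 26 were lower and 20 higher, with a median of 0.14 for all genes and -0.05 for members. None of the members passed there, where 1.7% of all genes did, against 0.861% with TMM. In the FPKM, 22 were lower and 24 higher, with medians of 0.06 for all genes and 0.00 for members.

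**Figure D3:**
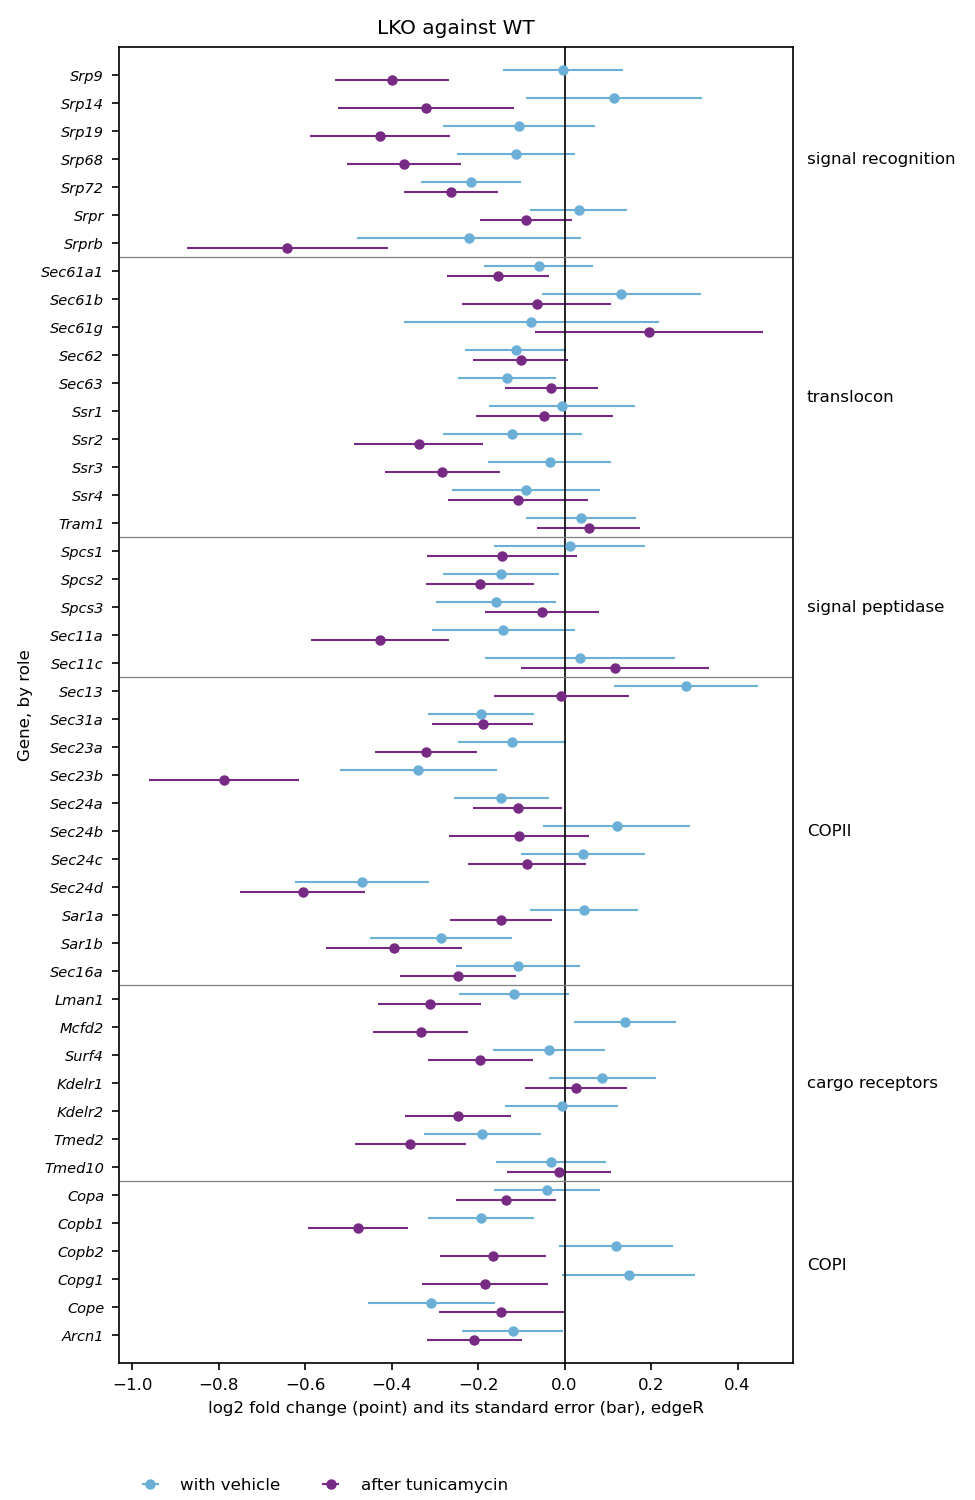
Log2 difference of LKO against WT (x axis, point, with the standard error as a bar) for the 46 tested members (y axis, by role), with vehicle and after tunicamycin. After tunicamycin 42 points lie left of 0, with Sec23b at -0.79 the farthest, and with vehicle 32 points do.

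Sec23b (chromosome 2, 144556229 to 144590749, mm10) encodes 1 of the 2 Sec23 proteins, the inner coat subunit that makes Sar1 hydrolyse its GTP. It had 13.3, 15.1 and 10.6 CPM in WT vehicle, 20.5, 12.8 and 17.1 in WT tunicamycin, and 12.6, 9.13 and 9.67 in LKO vehicle with 11.6, 9.24, 9.17 and 9.23 in LKO tunicamycin. After tunicamycin all LKO samples lay below all WT samples, and with vehicle the genotypes overlapped. The difference was -0.79 ± 0.17 after tunicamycin, with an edgeR adjusted p of 0.0441, and -0.34 ± 0.18 with vehicle, with 0.642. The interaction was -0.45 ± 0.25 (edgeR adjusted p 0.981), so the call after tunicamycin does not show a difference between treatments. DESeq2 gave an adjusted p of 0.0138 after tunicamycin. Total count scaling and limma on FPKM did not keep the call, at adjusted p of 0.0890 and 0.167, and neither did a fit with the replicate number as a block, at 0.0888. Of 13 edgeR fits with 1 sample left out, 5 kept it. The adjusted p was 0.0566 to 0.202 in the other 8, which left out WT vehicle 1, 2 or 3, WT tunicamycin 1 or 3, or LKO tunicamycin 2, 3 or 4. The highest was that without WT tunicamycin 1, a fit in which 0% of all genes passed. In these 8 fits 0% to 0.644% of all genes passed, and in the 5 that kept the call 0.614% to 1.84%.

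Sec24d (chromosome 3, 123267455 to 123365641), 1 of 4 Sec24 proteins that pick the cargo, showed the same direction under both treatments. It measured 40.95, 42.5 and 41.5 CPM in WT vehicle, 60.7, 39.6 and 53.1 in WT tunicamycin, and 26.7, 26.8 and 36.6 in LKO vehicle with 34.9, 31.8, 36.99 and 30.8 in LKO tunicamycin. The LKO samples lay below the WT samples with vehicle and again after tunicamycin. The difference was -0.61 ± 0.15 after tunicamycin (edgeR adjusted p 0.0600), beside -0.47 ± 0.16 with vehicle. DESeq2 called it after tunicamycin, at an adjusted p of 0.0234, as did edgeR without a filter on low counts, at 0.0138. It missed with total count scaling, at 0.147, with the replicate number as a block, at 0.118, with 14 libraries, at 0.0507, and with limma on FPKM, at 0.234. With 1 sample left out, edgeR called it without WT tunicamycin 2 and without LKO vehicle 3+4.

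Copb1 (chromosome 7, 114215559 to 114254711), a subunit of the COPI coat, had 32.6, 33.7 and 31.05 CPM in WT vehicle, 44.2, 32.7 and 42.6 in WT tunicamycin, and 30.2, 26.5 and 28.5 in LKO vehicle with 29.98, 25.8, 30.6 and 28.2 in LKO tunicamycin. Again the genotypes did not overlap under either treatment. After tunicamycin the difference was -0.48 ± 0.12 (edgeR adjusted p 0.0619), and with vehicle -0.19 ± 0.12 (0.712). DESeq2 called it after tunicamycin, at an adjusted p of 0.0322, as did edgeR with 14 libraries, at 0.0467, and without WT tunicamycin 2. It missed with total count scaling, at 0.243, with the block, at 0.118, with no filter, at 0.0575, and with limma on FPKM, at 0.305.

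WT tunicamycin 2 stood low for these genes. Its values of Sec24d and Copb1 were within or below the range of WT vehicle, and those of WT tunicamycin 1 and 3 above it. The same library was the WT sample with the highest fibroblast collagens. Col1a1 had 2.20, 8.27 and 1.54 CPM in WT tunicamycin 1 to 3, and 1.20, 1.15 and 1.60 in WT vehicle. In LKO samples Col1a1 ranged from 3.46 to 11.5 CPM. Col3a1 had 5.78, 20.1 and 6.17 CPM in WT tunicamycin 1 to 3, 5.39, 5.89 and 5.98 in WT vehicle, and 9.19 to 29.1 in LKO. So both collagens of WT tunicamycin 2 lay within the range of LKO and above all other WT samples, while its Rbbp5, at 5.03 CPM, lay within the range of WT. Its label was kept. Without this library 4 members (8.7%) were called after tunicamycin, all lower in LKO, and 1.84% of all genes, against 0.861% with it. These members were Sec23b, Sec24d, Sec11a and Copb1.

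Of the marker lists of other liver cells, that of stellate cells and fibroblasts was apart between genotypes with vehicle and overlapped after tunicamycin. The 5 genes of the stellate cell and fibroblast list summed to 62.4 to 103 CPM in WT vehicle, 86.8 to 121 in WT tunicamycin, with 107 to 147 in vehicle-treated LKO and 99.4 to 157 after tunicamycin. None of its 5 genes was at 0 in any sample. The 6 of the Kupffer cell and macrophage list summed to 30.4 to 33.7, 30.4 to 40.7, 23.3 to 37.0 and 33.2 to 68.8 CPM in the same order. The 5 of the sinusoidal endothelium list summed to 54.7 to 59.97, 53.4 to 56.7, 47.1 to 67.6 and 48.5 to 62.1. Both of these lists overlapped between genotypes under each treatment. The 4 bile duct markers, at 6.88 CPM or less in sum, were apart with vehicle by a narrow gap, with 2.1554 to 4.2271 in WT and 4.2341 to 5.9924 in LKO, and overlapped after tunicamycin. The 10 hepatocyte markers overlapped under both, with sums of 25291 to 28507, 25422 to 35816, 24104 to 31617 and 22887 to 28961. After tunicamycin 8 of the 10 were lower in LKO and 2 higher, and 1 passed edgeR's test, the factor Hnf4a at -0.54 ± 0.12 (adjusted p 0.0405). Serpina1c had -0.53 ± 0.15 (0.0955) and Fgb 0.00263 (0.998). Fgb had 3541, 3788 and 1193 CPM in WT tunicamycin 1 to 3, and 3575, 3334, 2490.5 and 1985 in LKO tunicamycin. Its value in WT tunicamycin 3 lay within the 971 to 1356.5 CPM of WT vehicle. The part of these values in the values of the members was not tested. In bulk liver, fewer cells of a type and less RNA per cell cannot be told apart.

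Among the other members, the signal recognition genes stood lowest as a group after tunicamycin, with 7 of 7 lower in LKO, a median of -0.37, and 4 of 7 without overlap. Those without overlap were Srp9, Srp68, Srp72 and Srprb. Srp19 overlapped, with 5.71 CPM as its lowest WT value and 5.81 as its highest LKO value. Srp9 differed by -0.40 ± 0.13, Srp68 by -0.37 ± 0.13, Srp19 by -0.43 ± 0.16 and Srprb by -0.64 ± 0.23, with edgeR adjusted p of 0.164, 0.190, 0.213 and 0.199. With vehicle, Srp9, Srp68, Srp19 and Srprb had -0.00413, -0.11, -0.11 and -0.22. The translocon had a median of -0.08, the signal peptidase -0.14, COPII -0.19, the cargo receptors -0.25 and COPI -0.17. Sec11a of the signal peptidase differed by -0.43 ± 0.16 (0.208) and its twin Sec11c by 0.12 ± 0.22 (0.844). The receptor pair Mcfd2 and Lman1 had -0.33 and -0.31, with the genotypes apart for both, and Tmed2 had -0.36. In the FPKM the difference of Tmed2 was 0.02.

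Since the design crosses genotype and treatment, both effects were also averaged over the other factor. These comparisons were chosen after the data had been seen. Averaged over genotypes, 3 members rose with tunicamycin and 0 fell, where 4.32% of all genes passed, 2.18% higher and 2.15% lower. Sec61a1 rose by 0.41 ± 0.09 (edgeR adjusted p 0.0190), Srp19 by 0.44 ± 0.12 (0.0453) and Spcs2 by 0.34 ± 0.09 (0.0461). In all, 40 members were higher, 19 of them at an unadjusted p under 0.05, where all genes gave 10.3% higher and 9.91% lower, and the median was 0.15 against 0.01 over all genes.

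Of these calls, only that of Sec61a1 held in most fits. It was kept in 10 of 13 fits with 1 sample left out, and the adjusted p was 0.0526 to 0.0602 when WT vehicle 2, WT vehicle 3 or WT tunicamycin 1 was left out. Srp19 and Spcs2 were each kept in 1 of the 13, that without WT tunicamycin 3, and had adjusted p of up to 0.143 and 0.138 without each of the other 12 samples. DESeq2 called Sec61a1 and Mcfd2, but neither Srp19 nor Spcs2, which is 4.35% of members against 5.02% of all genes. With total count scaling no member passed, where 8.4% of all genes did, against 4.32% with TMM. The edgeR adjusted p of Sec61a1 was 0.0617 there. Split by direction, 30 members were then higher and 16 lower, with a median of 0.04 against -0.11 over all genes. Without WT tunicamycin 3, 7 members passed (15.2%), which adds Tmed10, Mcfd2, Ssr2 and Srprb, and calls over all genes rose as well, from 4.32% to 10.9%. Without WT tunicamycin 1, no member passed, and 0.595% of all genes did.

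Averaged over treatments, LKO livers had 3 members lower than WT and 0 higher, where 2.21% of all genes passed, 0.861% lower and 1.35% higher. Sec24d fell by 0.54 ± 0.11 on the log2 scale (edgeR adjusted p 0.0162), Sec23b by 0.56 ± 0.13 (0.0292) and Copb1 by 0.34 ± 0.08 (0.0489). In all, 39 members were lower and 7 higher, with a median of -0.11 against 0.00, and 14 of them had an unadjusted p under 0.05 on the lower side (30.4%, where all genes gave 8.99% lower and 8.98% higher). DESeq2 called the same 3 members and 2.7% of all genes. Sec24d also passed with total count scaling, at an adjusted p of 0.0496, and missed in limma on FPKM, at 0.119. Total count scaling gave 15 members higher and 31 lower, and the FPKM 25 and 21. Without WT tunicamycin 2, 5 members passed (10.9%), with Tmed2 and Sec11a added, while 4.15% of all genes did, against 2.21% with all samples. Without WT vehicle 1 or WT vehicle 2 no member did, and calls over all genes fell to 0.626% and 0.777%.

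Sec24d was kept in 11 of 13 fits with 1 sample left out, with 0.0504 and 0.0501 without WT vehicle 1 and WT vehicle 2. Sec23b was kept in 6. It had 0.0555 to 0.0901 without WT vehicle 1 or 2, WT tunicamycin 1, LKO vehicle 2, or LKO tunicamycin 2, 3 or 4. Copb1 was kept in 1, without WT tunicamycin 2, and had 0.0548 to 0.123 without each of the other 12. Without the library labelled LKO vehicle 1, whose Rbbp5 lay in the WT range, Sec24d and Sec23b passed and Copb1 did not. In this comparison 2 of the 5 stellate markers and 2 of the 10 hepatocyte markers passed. The collagens Col1a1 and Col3a1 rose by 1.88 and 1.37, and Hnf4a and Serpina1c fell by 0.34 and 0.43 on the log2 scale, with edgeR adjusted p of 0.0101, 0.0173, 0.0475 and 0.0481. Their part in the fall of the members was not tested.

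**Figure D4:**
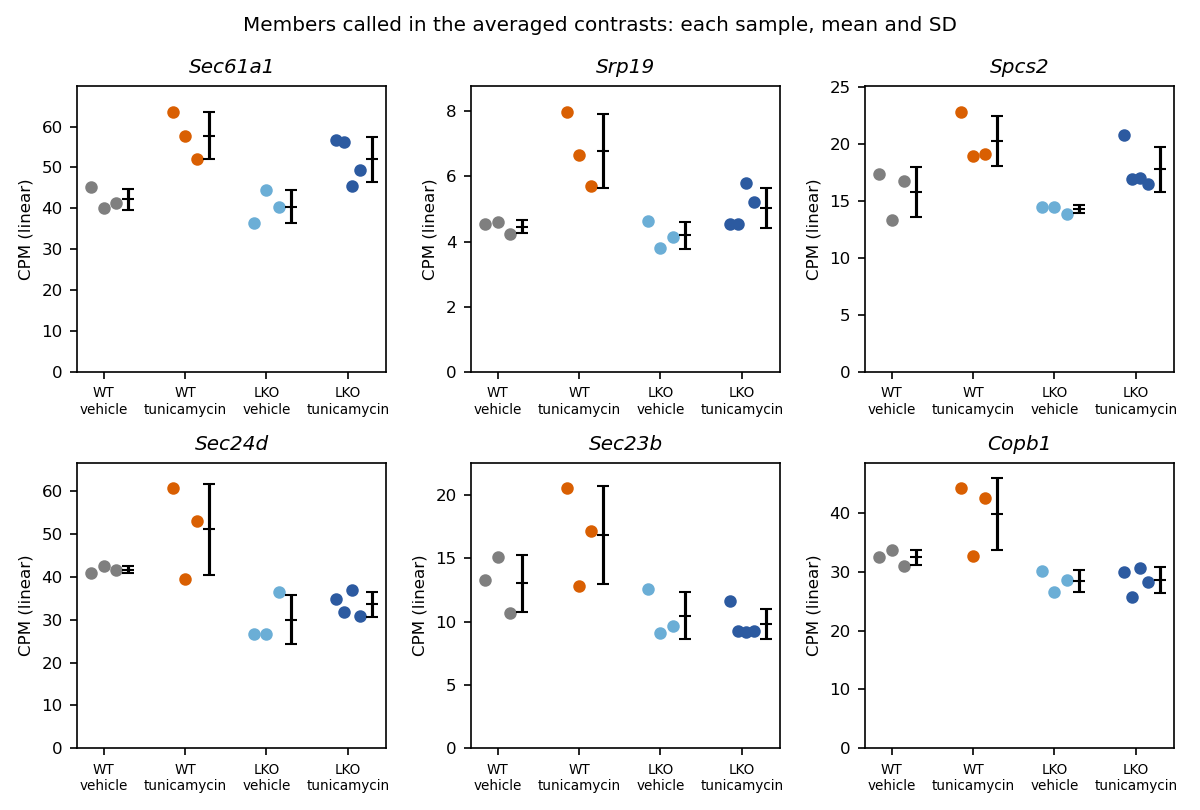
CPM (linear axis from 0) of the 6 members that passed in an averaged comparison, with each sample as a point, by group, and the mean and SD of the group beside it as a bar. For Sec61a1, Srp19 and Spcs2 the WT tunicamycin points lie above the WT vehicle points, and for Sec24d and Copb1 the LKO points lie below the WT points of the same treatment.

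Several members come as paralogues, and the share of 1 paralogue in the reads of its family does not depend on the scaling of libraries. The shares are a description with no test, and their Wilson intervals (95%) cover counting error only. Sec24d made up 27.0, 25.9 and 27.3% of the Sec24 reads in WT vehicle and 35.0, 27.4 and 32.2% in WT tunicamycin. In LKO vehicle it made up 19.8, 19.8 and 25.7%, and in LKO tunicamycin 26.3, 23.7, 26.5 and 22.6%. Under each treatment every LKO sample was below every WT sample, by a small margin at its closest, 25.7% against 25.9% with vehicle. The intervals there, 24.0 to 27.5% and 23.5 to 28.3%, overlap.

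Sec23b made up 25.2 ± 3.63% (SD, n = 3) of the Sec23 reads in WT vehicle, 27.8 ± 2.88% in WT tunicamycin, with 22.8 ± 3.58% in vehicle-treated LKO and 22.0 ± 2.02% (n = 4) after tunicamycin. After tunicamycin its WT samples, at 25.8 to 31.1%, lay above its LKO samples, at 19.9 to 24.4%. Sar1b made up 69.2 to 70.7% of the Sar1 reads in WT vehicle and 59.4 to 66.6% in WT tunicamycin, which do not overlap. In LKO it was 58.1 to 71.2% with vehicle and 53.8 to 63.5% after tunicamycin, which do. The lowest of all 13 shares was that of LKO tunicamycin 1.

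Sec11c made up 38.5 ± 3.69% of the reads of the catalytic pair in WT vehicle, 35.8 ± 3.96% in WT tunicamycin, with 40.8 ± 5.75% in vehicle-treated LKO and 44.2 ± 5.07% after tunicamycin. After tunicamycin the genotypes were apart, at 32.1 to 40.0% in WT and 41.0 to 51.6% in LKO, though with 75 to 142 reads behind each share. Kdelr2 held 66.3 to 73.9% of the reads of its family in all 13 samples, with overlapping groups. Kdelr3 held at most 1.27%. In the 6 samples with 0 reads of it, the limit that 0 allows is 3 reads.

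**Figure D5:**
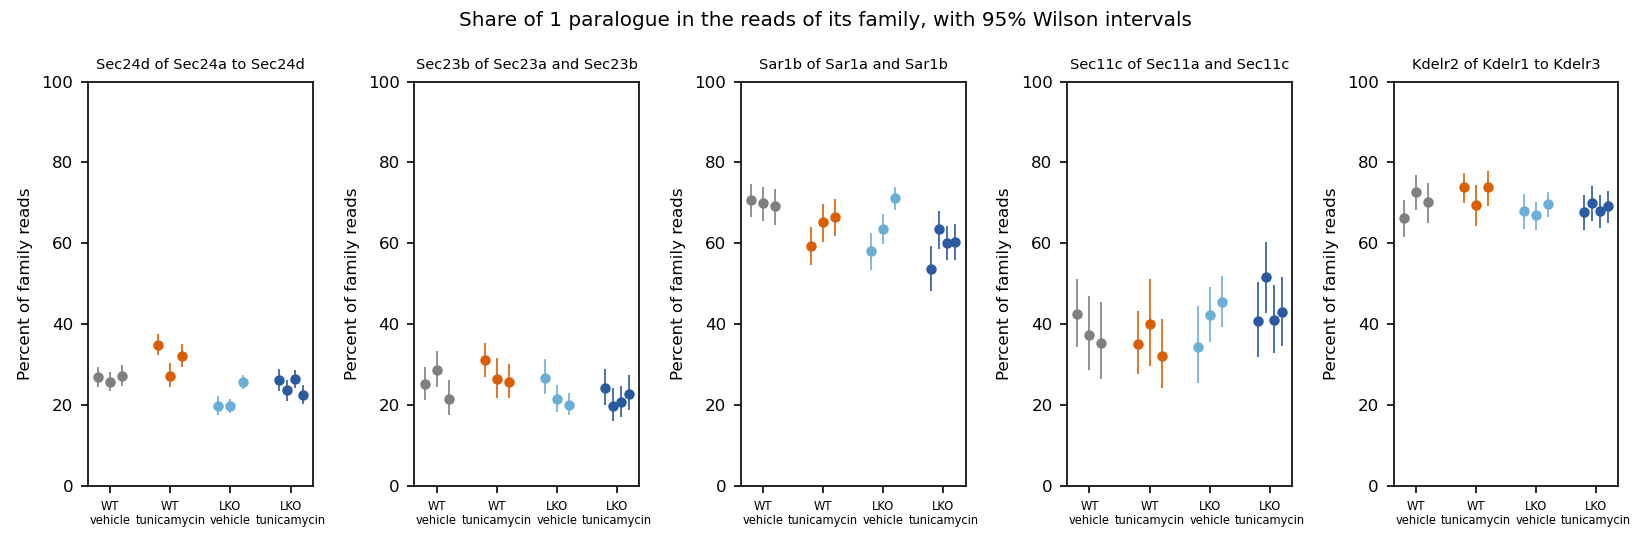
Percent of family reads (y axis, from 0 to 100) taken by Sec24d, Sec23b, Sar1b, Sec11c and Kdelr2, with each sample as a point in its group and a 95% Wilson interval as a bar. Sec24d is lower in LKO than in WT under each treatment, with 19.8 to 25.7% against 25.9 to 27.3% with vehicle.

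Other genes of the same route were counted from lists. Of 25 genes of targeting and insertion 18 were tested, of 32 of COPII and ER exit 31, and of 20 of COPI and Golgi return 20. In WT after tunicamycin none passed edgeR's test, with medians of -0.10, 0.17 and 0.18 in that order. At a raw p below 0.05, 1, 8 and 5 of them were higher (5.56%, 25.8% and 25%, against 7.93% of all genes) and 1, 1 and 0 lower (5.56%, 3.23% and 0%, against 6.85%). The 1 lower gene of ER exit was Mia2, at -0.45 ± 0.12 (edgeR adjusted p 0.111). In LKO none passed either, with medians of -0.10, -0.01 and 0.07. At a raw p below 0.05, 0, 3 and 2 were higher and 0, 1 and 1 lower, where all genes gave 5.83% and 6.33%. Between genotypes with vehicle none passed, with 1, 1 and 0 lower and 0 higher in each list at a raw p below 0.05, where all genes gave 3.44% and 4.71%. After tunicamycin, 1, 11 and 4 were lower in LKO at a raw p below 0.05. These are 5.56%, 35.5% and 20%, against 8.24% of all genes and 34.8% of members. On the higher side 1, 0 and 1 were (5.56%, 0% and 5%, against 7.55% of all genes). After adjustment 0 passed as higher in each list, where 0.311% of all genes did. As lower in LKO, 1 of 18, 2 of 31 and 0 of 20 passed, where 0.55% of all genes did. The genes were Ccdc47, a partner of the translocon, and Tfg and Stx5a, which act at ER exit sites and in fusion of vesicles with the Golgi. Ccdc47 had 60.3, 50.9 and 63.1 CPM in WT tunicamycin and 45.4, 39.9, 40.1 and 41.5 in LKO tunicamycin, at -0.48 ± 0.10 (edgeR adjusted p 0.0422). Tfg differed by -0.68 ± 0.15 (0.0459) and Stx5a by -0.998 ± 0.195 (0.0277). Stx5a had 19.4, 9.89 and 15.6 CPM in WT tunicamycin 1 to 3, and 8.53, 6.25, 8.15 and 7.17 in LKO tunicamycin.

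In the averaged comparisons, where 4.32% of all genes passed for tunicamycin and 2.21% for genotype, Tmed9, Tmed3 and Yipf5 of ER exit and Arfgap1 of Golgi return rose with tunicamycin, and Mia2 fell. Tmed9, a p24 receptor like Tmed2 and Tmed10, had 12.6, 14.7 and 11.7 CPM in WT vehicle, 26.01, 20.3 and 18.5 in WT tunicamycin, and 11.97, 12.7 and 11.6 in LKO vehicle with 19.2, 16.9, 16.4 and 13.5 in LKO tunicamycin. Its averaged difference was 0.59 ± 0.11 (edgeR adjusted p 0.0123), larger than the 0.30 of Tmed10 and the 0.07 of Tmed2. Mia2, which helps large cargo leave the ER, fell by 0.37 on the log2 scale (0.0226). Stx5a and Uso1, a tether of arriving vesicles, were lower in LKO and fell by 0.67 and 0.45 on the log2 scale on average (0.0246 and 0.0146).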

How the data were processed

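RNA was measured by polyA RNA-seq in 14 liver libraries. Per the submitters' processing notes, Trimmomatic, STAR and Cufflinks and the build mm10 were used, and their roles and versions are not given in the sources used here. The deposited files hold raw read counts per gene as STAR writes them, of which the column for the strand of the gene was used, and per the file headers a table of FPKM values that the authors made with the layout of Cufflinks. The depth is 1704479 to 3551398 reads per library without Rn45s, and with few reads per gene the intervals cover counting error only.

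LKO vehicle libraries 3 and 4 were summed. Rn45s was not removed, so total count scaling rests mostly on it. Counts of 9644 genes left by edgeR's filterByExpr were fitted with edgeR 4.0.16 (R 4.3.3), with TMM scaling, the quasi-likelihood test, 1 mean per group and Benjamini-Hochberg adjustment over all 9644 genes at a threshold of 0.05. The fit had 9 residual degrees of freedom and a common biological coefficient of variation of 0.155. Alternatives were total count scaling, DESeq2 1.42.0, no filter, 14 separate libraries, each sample left out, the replicate number as a block, and limma 3.58.1 on log2(FPKM + 1), which understates changes of low genes. Scripts were tested on simulated data. Positions are from GENCODE M21 and promoters from RefSeq, both on the mm10 build (GRCm38). Members and lists were chosen with earlier results of these data known, and the averaged comparisons after seeing the data. Named were members called in any comparison, those with the smallest p in each role, the highest and lowest levels, members with the largest spread and the paralogue families. No column of per-sample values was left unused.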

Additional observations from a re-analysis of the deposited data

Results flagged for a closer look

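Of 46 members with 4 LKO tunicamycin samples, 3 had 1 sample far from the others by Dixon's ratio, which exceeded its 95% critical value, and chance flags about 1 in 20 such groups. Spcs2 was at 20.8 CPM in LKO tunicamycin 1, above the other 3 samples. Sec23b was at 11.6 CPM in the same sample, again the highest of the 4. Kdelr2 was at 34.6 CPM in LKO tunicamycin 3, below the other 3.

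Reads on the strand opposite to the gene were used in no comparison. Over 14 libraries, 34 members had more than 3 such reads. Kdelr3 had 18 of them, beside 16 on its own strand.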

How the results depend on the processing

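The number of members called depended on the processing. In WT after tunicamycin it was 0, where 0.363% of all genes passed. DESeq2 gave 2 (4.35%, against 1.56% of all genes), and LKO vehicle 3 and 4 as separate samples gave 1 (2.17%, against 0.578%). With 1 sample left out it was 0 to 3, where 0% to 6.19% of all genes passed. The 3 (6.52%) came without WT tunicamycin 3, where 6.19% of all genes passed. For LKO against WT after tunicamycin it was 1, where 0.861% of all genes passed. DESeq2 gave 3 (6.52%, against 1.43% of all genes). No filter on low counts gave 2 (4.26%, against 1.61%), as did 14 samples (4.35%, against 1.19%). Total count scaling, the replicate block and the FPKM gave 0, where 1.7%, 0.332% and 0.759% of all genes passed. With 1 sample left out it was 0 to 4, where 0% to 1.84% of all genes passed. For tunicamycin averaged over genotypes it was 3, where 4.32% of all genes passed. Total count scaling and the FPKM gave 0, where 8.4% and 2.69% of all genes passed. With 14 samples it was 6 (13%, against 6.89% of all genes). With 1 sample left out it was 0 to 7, where 0.595% to 10.9% of all genes passed. DESeq2 gave 2, Mcfd2 and Sec61a1 (4.35%, against 5.02%). No filter on low counts gave 2, Sec61a1 and Srprb (4.26%, against 4.7%). For LKO averaged over treatments it was 3, where 2.21% of all genes passed. Total count scaling gave 1 (2.17%, against 2.71% of all genes), and the FPKM gave 0, where 1.52% of all genes passed. With 1 sample left out it was 0 to 5, where 0.626% to 4.15% of all genes passed. The cause was not tested.

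Some small log2 differences changed sign. With total count scaling Spcs1 was at -0.11 for tunicamycin in WT and at 0.00747 for LKO against WT after tunicamycin, and Copb1 at -0.029 for tunicamycin in LKO. In the FPKM, Copb1 was at -0.016 for tunicamycin in LKO. Also in the FPKM, LKO against WT was 0.028 for Sec61a1 and 0.18 for Srp19 with vehicle. After tunicamycin it was 0.00924 for Sec61a1, 0.047 for Spcs1 and 0.015 for Tmed2, and averaged 0.019 for Sec61a1 and 0.027 for Srp19. With 1 sample left out, the tunicamycin difference ranged from -0.037 to 0.069 for Copb1 in LKO, from -0.17 to 0.055 for Sec23b in LKO and from -0.083 to 0.26 for Spcs1 in WT. Of the values of named members with all samples kept, 334 kept direction and call status, 20 lost the call, 7 gained it and 11 changed sign. Most of the 334 were uncalled in both fits. Only values called in the main fit had a call to lose, so the 334 do not measure how stable the calls were.

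Samples with the same replicate number showed little shared deviation over all genes tested (correlations of -0.118 to 0.117). The labels do not say what a number shares, and with so few samples per group this check cannot exclude a pairing. With the number as a block, 0 members were called in WT after tunicamycin, where 0.394% of all genes were. In each averaged comparison 2 members (4.35%) were called, against 4.84% of all genes for tunicamycin and 1.73% for genotype. Depth limits the members with few reads, such as Srprb with 22 to 76 reads in each sample.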
